A study of Homo sapiens with 8 samples.

Results

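The 35 genes described here encode the enzymes and regulators that start and carry out DNA replication at the G1/S transition. They were chosen by gene symbol from a list of replication and G1/S genes, and each symbol was found once in the count tables of NCI-H1944 (46427 entries) and NCI-H647 (61271 entries), 2 established human lung cancer cell lines labelled as wild type. Cells received BAY-1217389 at 100 nM, which blocks the mitotic kinase MPS1 (encoded by TTK), or DMSO as its solvent control, for 48 hours. The drug was then washed out, and RNA was taken 24 hours later from 2 libraries in each of the 4 groups. MPS1 delays chromosome separation while attachments are incomplete, and cells lacking its activity missegregate chromosomes. The question of each comparison was how expression was altered after this pulse.

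Replication starts in steps. In G1, the origin recognition complex with ORC1, and the loaders CDC6 and CDT1, place the ring of MCM2 to MCM7 on DNA. At the start of S phase the kinase CDC7, cyclin E with CDK2, CDC45 and the GINS complex turn that ring into a moving helicase. Polymerases alpha, delta and epsilon then copy the strands, and PCNA is the sliding clamp of this step. Many of these genes are known targets of the E2F transcription factors, which the retinoblastoma protein holds back until cyclin-dependent kinases release them. The kinase inhibitor p21, the product of CDKN1A, opposes that release.

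To show what the 35 genes share in sequence, promoter windows of RefSeq (GRCh38.p14, 250 bases before to 50 after each start) were searched on both strands for 4 strings of the E2F site, TTTCCCGC, TTTGGCGC, TTTCGCGC and TTTGCCGC, whose matches can overlap. Windows were held for 30 of the 35 genes, and 20 of these 30 (66.7%) carried at least 1 match in a window, against 3.99% of 27303 genes with a window. Of the 20 genes, 16 had a match within the 100 bases before a start. The letters TTTGAA of the CHR element, known from promoters of mitotic genes, were found in 1 of the 30 genes, in 23 of 32 mitosis genes and in 18.2% of all genes. The stretches below are those of the 5 genes with the largest called log2 change among genes with a window, taking for each gene the largest of its called changes in either line and its called difference between the lines, and are read 5′ to 3′ along the gene's own strand, with the E2F letters in capitals. GINS2 and UHRF1 were ranked by the difference between the lines, and by change within a line alone CDC7 and TK1 exceeded UHRF1. A match is a description of the letters and not a measured binding site.
GINS2 (chr16:85688967-85688996, minus strand): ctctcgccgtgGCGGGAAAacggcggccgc
CDCA7 (chr2:173354796-173354825, plus strand): tgtgtcccaacGCGGGAAAgacagcccgag
TYMS (chr18:657603-657632, plus strand): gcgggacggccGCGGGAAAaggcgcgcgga
POLE2 (chr14:49688201-49688230, minus strand): ctgcggcggtgGCGCCAAAtcgcaaatatg
UHRF1 (chr19:4909476-4909505, plus strand): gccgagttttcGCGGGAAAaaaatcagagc
Read on this strand, GINS2, CDCA7, TYMS and UHRF1 carried the same letters, GCGGGAAA, beginning 31, 65, 39 and 14 bases before the start, and POLE2 carried GCGCCAAA across its start.

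In NCI-H647, 33 of the 35 genes fell after the inhibitor, 1 rose (CCNE1, cyclin E1) and 1 was not called (CCNE2, cyclin E2). The share of all 15049 tested genes called lower in that line was 27.0%, and 27.3% were called higher. The median change of the 35 genes was a 1.70-fold decrease (log2 -0.77), while the median over all tested genes was 0.01. In NCI-H1944, 15 of the 35 fell and none rose, against 12.4% of 16738 genes lower and 13.6% higher, with a median 1.11-fold decrease (log2 -0.15, all genes 0.00). A call is an adjusted p under 0.05 in edgeR's quasi-likelihood test, and ± after a log2 change is its standard error. At an unadjusted p under 0.05, 1 of the 35 was higher in NCI-H1944 by edgeR and none by DESeq2. The summed level of the 35 genes was taken in CPM (counts per 1000000 of the TMM-scaled library total). For NCI-H647 it was 2412 and 2402 in the DMSO libraries and 1575 and 1573 in the treated ones, a change of -34.6%. In NCI-H1944 it was 1610 and 1612 against 1463 and 1459, a change of -9.32%. The treated libraries were below the controls in both lines, with a wider gap in NCI-H647. In RNA from bulk cells, fewer cells in S phase and less mRNA per cell cannot be told apart.

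**Figure D1:**
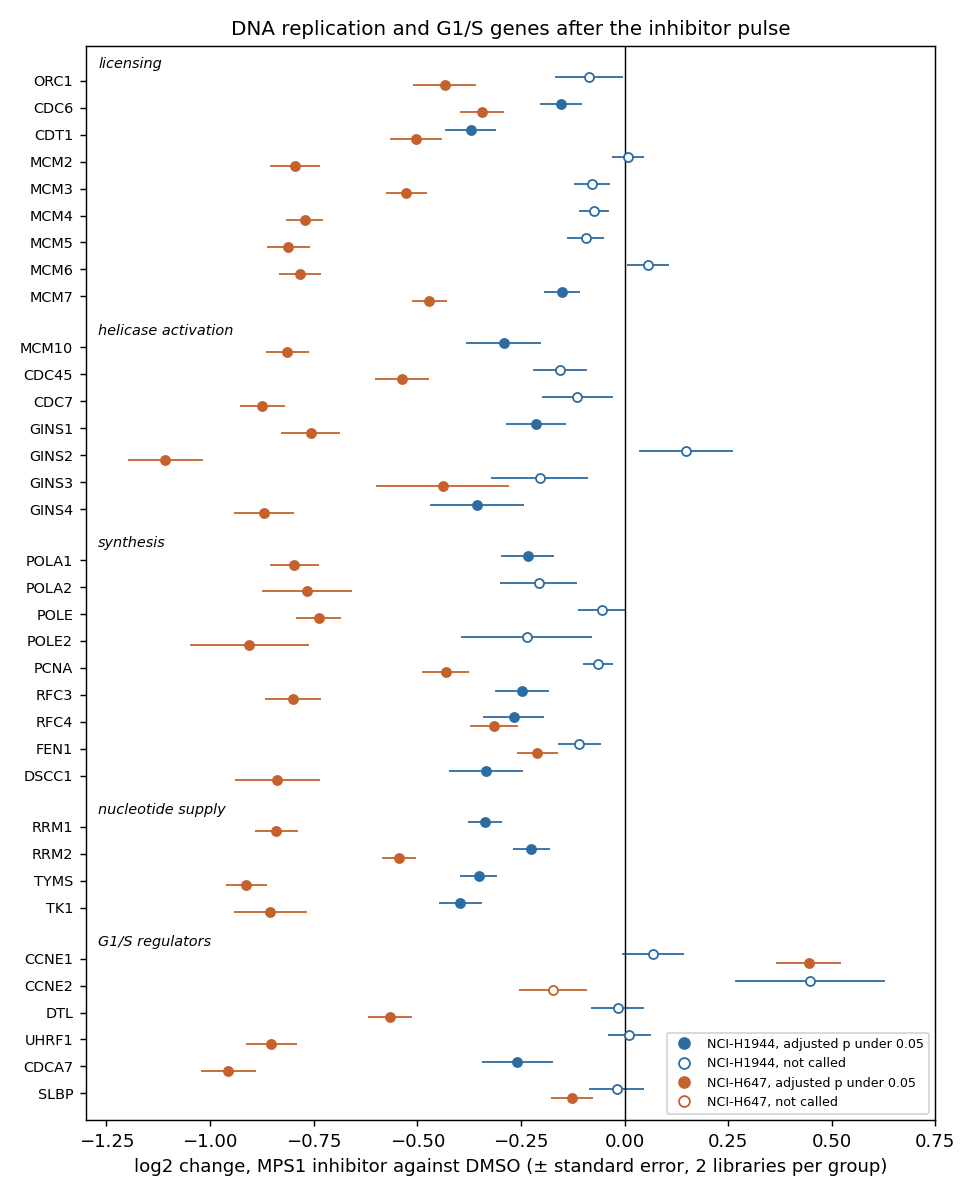
Log2 change of each of the 35 genes (points, with standard error bars, 2 libraries per group) after the MPS1 inhibitor in NCI-H1944 (blue) and NCI-H647 (orange), grouped by role. Filled points passed an adjusted p under 0.05. The orange points lie left of 0 for 34 genes and reach -1.11 for GINS2, while the blue points lie between -0.40 and 0.45.

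Totals per library were 38904473 to 43661342 counts for NCI-H1944 and 13358514 to 19550859 for NCI-H647. The genes of interest had 107 to 6680 counts per library in the first line and 65 to 4551 in the second, all passing the low-count filter. The drug's target gene TTK fell in both lines. Its levels in NCI-H1944 were 19.4 and 19.2 CPM with DMSO and 12.1 and 11.5 with the drug, and in NCI-H647 they were 182 and 187 against 112 and 111. Epithelial markers (EPCAM, CDH1, KRT8, KRT18, KRT19, KRT7) summed to 4125 to 4949 CPM in NCI-H1944, where KRT19 was at 0, and to 634 to 895 CPM in NCI-H647. The sum was higher after the inhibitor in the first line (4790 to 4949 against 4125 to 4133 CPM) and lower in the second (634 to 639 against 874 to 895 CPM). In NCI-H647 the log2 changes of KRT7, KRT8 and KRT18 were -0.70, -0.41 and -0.30. KRT19 went the other way there (0.35), EPCAM was at -0.04, and CDH1 did not pass the low-count filter. The part of these markers in the results was not tested. Leukocyte markers (PTPRC among those at 0 in NCI-H1944) summed to at most 2.92 CPM and erythroid markers (3 genes, HBB at 0 in NCI-H647) to at most 3.05 CPM in any library. Fibroblast markers (4 genes, COL1A2 at 0 in NCI-H1944) summed to 4.09 to 7.20 CPM in NCI-H1944 and 24.2 to 34.7 in NCI-H647, and endothelial markers (3 genes) to 0.787 to 1.93 and 24.1 to 32.6 CPM. The kits differed between the lines, with poly(A) selection for NCI-H1944 and depletion of ribosomal RNA for NCI-H647, so levels are compared within a line. Nothing in the labels says that replicates were separate cultures, so p-values measure the spread between these libraries, which may be technical.

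All 9 licensing genes fell in NCI-H647, with a median 1.44-fold decrease, and 3 of 9 fell in NCI-H1944. Over all tested genes, 27.0% were lower and 27.3% higher in NCI-H647, and 12.4% and 13.6% in NCI-H1944. These shares belong beside the counts of each role and list below. In NCI-H647, MCM2 stood at 77.0 and 72.3 CPM after DMSO and 45.4 and 40.6 CPM after the inhibitor (log2 -0.80 ± 0.06, adjusted p = 3.92e-08). MCM4 stood at 237 and 222 CPM against 135 and 133 CPM (log2 -0.77 ± 0.04, adjusted p = 1.50e-09). Both treated libraries lay below both controls for each gene, and how often this occurs over all genes was not counted. MCM5 went from 73.0 and 71.4 to 41.2 and 41.1 CPM (log2 -0.81 ± 0.05), and MCM6 from 150 and 140 to 82.7 and 86.0 CPM (log2 -0.78 ± 0.05). MCM3 went from 111 and 112 to 77.0 and 77.3 CPM (log2 -0.53 ± 0.05). MCM7 fell less, from 209 and 218 to 154 and 154 CPM (log2 -0.47 ± 0.04). The 6 subunits fell by 1.39- to 1.75-fold.

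In NCI-H1944, 1 of the 6 subunits was called, where 12.4% of all tested genes were called lower. MCM7 fell from 86.3 and 90.0 to 77.9 and 80.8 CPM (log2 -0.15 ± 0.04, adjusted p = 0.0148). That call was lost without the second DMSO library or the first treated library. It was also lost with no low-count filter (adjusted p = 0.0938). MCM2 had 92.9 and 95.4 CPM after DMSO and 94.6 and 94.7 CPM after the inhibitor (log2 0.01 ± 0.04, adjusted p = 0.915), so the groups overlapped. MCM6 had 46.5 and 46.9 against 47.9 and 49.4 CPM (log2 0.06 ± 0.05, adjusted p = 0.459). MCM4 had 159 and 165 against 153 and 154 CPM, MCM5 64.5 and 65.7 against 60.4 and 61.6 CPM, and MCM3 97.3 and 90.0 against 88.3 and 89.0 CPM, none of them called. The response differed between the lines for each of the 6 subunits in the interaction test, by -0.34 for MCM7, -0.47 for MCM3 and from -0.72 to -0.86 for the other subunits (adjusted p from 2.47e-10 to 1.74e-05). A negative difference means a lower response in NCI-H647.

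**Figure D2:**
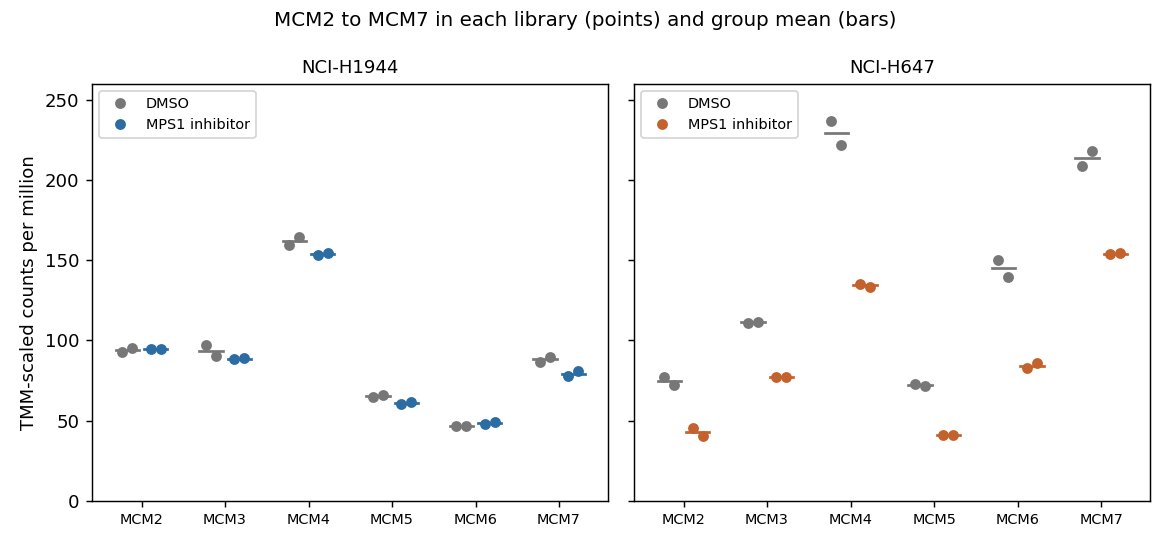
TMM-scaled CPM of MCM2 to MCM7 in each library (points) with the group mean (short bars), DMSO in grey and the MPS1 inhibitor in colour, NCI-H1944 left and NCI-H647 right. In NCI-H647 every treated point is below the control points of the same gene, while in NCI-H1944 the MCM2 points overlap at 92.9 to 95.4 CPM. Treated points are also below the controls for MCM3, MCM4 and MCM5 in NCI-H1944, which were not called. How often libraries separate in this way over all genes was not counted. Counts are not divided by gene length, so heights compare libraries within a gene.

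CDT1, which brings the MCM ring to origins, fell in both lines, from 32.9 and 33.7 to 25.5 and 25.9 CPM in NCI-H1944 (log2 -0.37 ± 0.06, adjusted p = 0.000286) and from 33.5 and 34.0 to 24.2 and 23.4 CPM in NCI-H647 (log2 -0.50 ± 0.06, adjusted p = 7.53e-06). Its difference between the lines was not called (-0.15 ± 0.09, adjusted p = 0.184). CDC6, an ATPase that loads the ring, fell from 56.6 and 54.7 to 51.4 and 48.6 CPM in NCI-H1944 (log2 -0.15 ± 0.05, adjusted p = 0.0331) and from 106 and 115 to 89.3 and 84.8 CPM in NCI-H647 (log2 -0.34 ± 0.05). ORC1, the cell-cycle-regulated subunit of the origin recognition complex, had 21.9 and 19.2 against 19.1 and 19.7 CPM in NCI-H1944, where the groups overlapped, and fell from 31.4 and 36.2 to 24.4 and 25.6 CPM in NCI-H647 (log2 -0.43 ± 0.08). The differences between the lines were -0.21 ± 0.07 for CDC6 (adjusted p = 0.0253) and -0.37 ± 0.11 for ORC1 (adjusted p = 0.0123). Both calls were lost when libraries were scaled by their totals alone or tested with DESeq2. That of CDC6 was also lost in edgeR with the size factors of DESeq2 (adjusted p = 0.0509). The ORC1 call was also lost without the second DMSO library of either line or the first treated library of NCI-H647 (adjusted p up to 0.107). The CDC6 call was also lost without the second DMSO library of either line, the first treated library of NCI-H1944 or the second of NCI-H647 (adjusted p up to 0.114).

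All 7 genes of helicase activation fell in NCI-H647, with a median 1.76-fold decrease, and 3 of 7 fell in NCI-H1944. GINS2, a subunit of the tetramer that locks the helicase around DNA, had the largest fall of the 35 genes, from 30.5 and 27.2 to 14.4 and 12.5 CPM in NCI-H647 (2.155-fold, log2 -1.11 ± 0.09, adjusted p = 7.78e-08). In NCI-H1944 it had 7.97 and 7.69 CPM after DMSO and 9.23 and 8.13 CPM after the inhibitor (log2 0.15 ± 0.11, adjusted p = 0.383). The estimates had opposite signs, and its difference between the lines was the largest of the 35 (-1.28 ± 0.15, adjusted p = 4.65e-07). GINS4 fell in both, from 31.5 and 34.3 to 17.8 and 18.1 CPM in NCI-H647 (log2 -0.87 ± 0.07) and from 9.09 and 8.81 to 7.32 and 6.66 CPM in NCI-H1944 (log2 -0.36 ± 0.11, adjusted p = 0.0291). GINS1 also fell in both, from 34.3 and 34.6 to 19.1 and 21.6 CPM (log2 -0.76 ± 0.07) and from 24.95 and 24.2 to 21.8 and 20.6 CPM (log2 -0.21 ± 0.07, adjusted p = 0.0391). GINS3, the least counted of the 4 in NCI-H647, fell from 6.93 and 6.54 to 4.71 and 5.23 CPM (log2 -0.44 ± 0.16, adjusted p = 0.0305), a call lost with library totals alone (0.0508), with DESeq2 (0.311), and without the first DMSO (0.117) or first treated library (0.131).

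CDC7, the kinase that phosphorylates the MCM ring, fell from 51.3 and 51.0 to 27.3 and 28.6 CPM in NCI-H647 (log2 -0.87 ± 0.05, adjusted p = 3.92e-09) and had 18.8 and 16.9 against 16.0 and 16.9 CPM in NCI-H1944 (adjusted p = 0.374). DBF4, its activating subunit, fell by much the same estimate in both lines, -0.45 ± 0.06 in NCI-H647 and -0.47 ± 0.10 in NCI-H1944. MCM10, which helps the helicase to open DNA, fell from 65.8 and 67.5 to 38.3 and 37.5 CPM in NCI-H647 (log2 -0.81 ± 0.05) and from 18.5 and 18.9 to 16.5 and 14.02 CPM in NCI-H1944 (log2 -0.29 ± 0.09, adjusted p = 0.0260). CDC45, a helicase cofactor, fell from 32.2 and 31.8 to 22.0 and 22.2 CPM in NCI-H647 (log2 -0.54 ± 0.07) and had 29.9 and 30.8 against 26.5 and 28.0 CPM in NCI-H1944 (adjusted p = 0.0908). In a fit of all 8 libraries CDC45 was called lower in NCI-H1944 (adjusted p = 0.0485). The response of all 3 differed between the lines, by -0.78 ± 0.10 for CDC7, -0.55 ± 0.10 for MCM10 and -0.40 ± 0.09 for CDC45. GMNN, whose product geminin binds and inhibits CDT1, fell in NCI-H647 (log2 -0.49 ± 0.05) and had a log2 change of 0.08 ± 0.08 in NCI-H1944 (adjusted p = 0.536).

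Among the 9 genes of DNA synthesis, all fell in NCI-H647 and 4 fell in NCI-H1944. POLA1, the catalytic subunit of polymerase alpha, which lays down the first stretch of each new strand, fell from 47.5 and 45.5 to 27.8 and 25.8 CPM in NCI-H647 (log2 -0.80 ± 0.06) and from 33.7 and 31.4 to 27.1 and 28.2 CPM in NCI-H1944 (log2 -0.23 ± 0.06, adjusted p = 0.0135). Its partner POLA2 fell from 26.8 and 22.7 to 12.9 and 16.3 CPM in NCI-H647 (log2 -0.77 ± 0.11) and had 19.8 and 16.4 against 15.5 and 15.8 CPM in NCI-H1944 (adjusted p = 0.122). With 1 library left out, its log2 change in NCI-H1944 ranged from -0.34 (without the second DMSO library) to -0.07. POLE, the leading-strand polymerase, fell from 49.4 and 50.9 to 30.1 and 29.99 CPM in NCI-H647 (log2 -0.74 ± 0.05) but had 36.3 and 36.7 against 34.2 and 36.1 CPM in NCI-H1944 (log2 -0.05 ± 0.06, adjusted p = 0.548). The control and treated libraries were closest for POLE among these polymerase genes in NCI-H1944. POLE2, a second subunit of polymerase epsilon, fell from 10.6 and 10.6 to 6.30 and 5.01 CPM in NCI-H647 (log2 -0.91 ± 0.14) and was not called in NCI-H1944 (log2 -0.24 ± 0.16, adjusted p = 0.314), where it had 4.57 and 4.32 against 3.95 and 3.60 CPM.

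RFC3, a subunit of the clamp loader, fell from 36.6 and 39.6 to 21.4 and 22.3 CPM in NCI-H647 (log2 -0.80 ± 0.07) and from 30.8 and 29.6 to 25.7 and 25.3 CPM in NCI-H1944 (log2 -0.25 ± 0.06). RFC4, another subunit of the same loader, fell by nearly equal estimates, -0.32 ± 0.06 and -0.27 ± 0.07, and its difference between the lines was not called (-0.07 ± 0.09, adjusted p = 0.580). DSCC1, part of the alternative loader that serves sister chromatid cohesion, fell from 19.6 and 21.8 to 10.7 and 12.4 CPM in NCI-H647 (log2 -0.84 ± 0.10) and from 14.4 and 14.2 to 11.1 and 11.6 CPM in NCI-H1944 (log2 -0.33 ± 0.09). PCNA, the clamp, fell in NCI-H647 from 72.3 and 72.8 to 50.9 and 56.7 CPM (log2 -0.43 ± 0.06) and had 145 and 141 against 137 and 136 CPM in NCI-H1944 (adjusted p = 0.230). FEN1, the nuclease that trims Okazaki fragments, had a small fall in NCI-H647, from 99.8 and 98.0 to 86.2 and 84.7 CPM (log2 -0.21 ± 0.05, adjusted p = 0.00214), and its difference between the lines was not called (-0.12 ± 0.07, adjusted p = 0.186).

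All 4 genes of nucleotide supply fell in both lines, and these calls held under every alternative run. TYMS, which makes thymidylate, fell from 125.5 and 122 to 65.0 and 66.3 CPM in NCI-H647 (1.88-fold, log2 -0.91 ± 0.05, adjusted p = 8.53e-10) and from 110 and 121 to 91.6 and 89.5 CPM in NCI-H1944 (log2 -0.35 ± 0.04, adjusted p = 1.65e-05). RRM1, the large subunit of ribonucleotide reductase, fell from 113 and 111 to 63.9 and 61.2 CPM (log2 -0.84 ± 0.05) and from 97.0 and 93.3 to 76.4 and 74.2 CPM (log2 -0.34 ± 0.04). RRM2, the small subunit, fell from 204 and 199.5 to 137 and 140 CPM (log2 -0.54 ± 0.04) and from 67.5 and 67.4 to 56.8 and 58.6 CPM (log2 -0.22 ± 0.04). In these 3 genes, and in TK1, both treated libraries lay below both control libraries in each line. Such separation also held for genes that were not called, such as PCNA in NCI-H1944. How often it occurs over all genes was not counted. TK1, the thymidine salvage kinase, fell from 32.9 and 31.1 to 19.7 and 15.7 CPM in NCI-H647 (log2 -0.85 ± 0.09) and from 52.3 and 52.8 to 39.0 and 40.9 CPM in NCI-H1944 (log2 -0.40 ± 0.05, adjusted p = 2.17e-05). That log2 change was the lowest of the 35 genes in NCI-H1944. The response was lower in NCI-H647 for each of the 4, by -0.34 ± 0.05 for RRM2 to -0.58 ± 0.07 for TYMS.

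Of the 6 regulators of G1/S and of S phase, 4 fell and 1 rose in NCI-H647, and 1 fell in NCI-H1944. Over all tested genes, 27.0% fell and 27.3% rose in NCI-H647, and 12.4% fell in NCI-H1944. CCNE1, which with CDK2 drives entry into S phase, rose in NCI-H647 from 20.7 and 18.3 to 26.5 and 26.7 CPM (1.36-fold, log2 0.44 ± 0.08, adjusted p = 0.000195) and had 19.7 and 20.9 against 21.0 and 21.6 CPM in NCI-H1944 (adjusted p = 0.564). Its difference between the lines was 0.35 ± 0.11 (adjusted p = 0.0135), lost with DESeq2 (0.110) and without the second DMSO library of NCI-H647 (0.12). CCNE2, its paralogue, had 23.9 and 28.1 against 22.8 and 23.1 CPM in NCI-H647 (log2 -0.17 ± 0.08, adjusted p = 0.0906), and 2.72 and 2.73 against 3.92 and 3.50 CPM in NCI-H1944 (log2 0.45 ± 0.18, adjusted p = 0.0833). CCNE2 was called lower in NCI-H647 with the replicate number as a block (adjusted p = 0.0355) and without the first DMSO library (0.00571), and higher in NCI-H1944 in a fit of all 8 libraries (0.0153). The difference for CCNE2 was -0.64 ± 0.18 (adjusted p = 0.00545). CDK2, the shared partner of both cyclins, had log2 changes of -0.13 ± 0.05 in NCI-H647 (adjusted p = 0.0505) and -0.01 ± 0.06 in NCI-H1944 (adjusted p = 0.917).

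UHRF1 and CDCA7 fell steeply in NCI-H647. UHRF1, which guides maintenance DNA methylation behind the fork, fell from 51.3 and 53.4 to 30.8 and 27.1 CPM (log2 -0.85 ± 0.06, adjusted p = 1.95e-08) and had 43.8 and 43.0 against 44.7 and 42.8 CPM in NCI-H1944, where the groups overlapped. CDCA7, which activates the remodelling factor HELLS, fell from 35.9 and 35.7 to 18.1 and 18.8 CPM (1.94-fold, log2 -0.96 ± 0.07) and from 15.8 and 15.4 to 13.1 and 13.0 CPM in NCI-H1944 (log2 -0.26 ± 0.09, adjusted p = 0.0360). The call of CDCA7 in NCI-H1944 was lost without any single library. DTL, the adaptor that directs CDT1 to degradation during S phase, fell from 71.0 and 74.96 to 49.1 and 49.4 CPM in NCI-H647 (log2 -0.57 ± 0.05) and had 28.9 and 30.9 against 29.97 and 29.2 CPM in NCI-H1944. SLBP, which binds the stem-loop of histone mRNAs, changed least in NCI-H647, from 49.8 and 48.9 to 44.4 and 46.1 CPM (log2 -0.13 ± 0.05, adjusted p = 0.0455), a call lost under 7 of 12 alternatives, among them leaving out either DMSO library (0.203 and 0.141) or the first treated library (0.173). In NCI-H1944 it had 43.5 and 45.2 against 47.3 and 40.2 CPM, and the groups overlapped.

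The response of 30 of the 35 genes differed between the lines in edgeR's interaction test, 29 lower and 1 (CCNE1) higher in NCI-H647. Over all 12887 genes tested there, 22.7% were lower and 17.4% higher in that sense, a share of 43.4% higher among the calls that became 59.5% when libraries were scaled by their totals alone. The median difference of the 35 genes was -0.55 (-0.46 with library totals alone), and over all genes it was -0.04 (0.05 with library totals alone). CDT1, GINS3, RFC4, FEN1 and SLBP were not called. Across the 35 genes the log2 changes in the 2 lines had a Pearson correlation of 0.361 and a Spearman correlation of 0.366, as a description over genes that share libraries. The 20 genes with E2F letters had a median log2 change of -0.78 in NCI-H647 (range -1.11 to -0.34) and the 10 without had -0.49 (range -0.86 to 0.44). In NCI-H1944 the medians were -0.15 and -0.19. Only 4 exact strings were searched, 5 of the 35 genes had no window, and this split was not tested. The kit and the depth differ with the line and cannot be told apart from it.

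**Figure D3:**
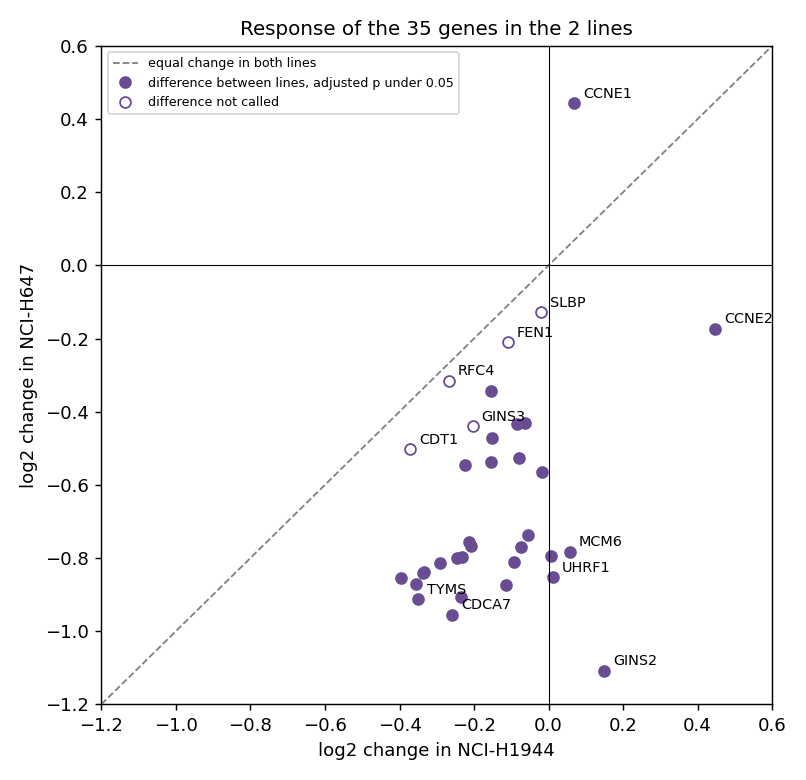
Log2 change after the MPS1 inhibitor in NCI-H1944 (horizontal) against NCI-H647 (vertical) for the 35 genes (points). Filled points have a difference between the lines with an adjusted p under 0.05, and the dashed line marks equal change. All points but CCNE1 lie below the dashed line, with GINS2 farthest at 0.15 and -1.11.

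Of 59 further genes of the replication pathway, 44 fell and 3 rose in NCI-H647 (median log2 -0.44), and 22 fell and 1 rose in NCI-H1944 (median -0.12). The largest falls in NCI-H647 were in PRIM1, the catalytic primase subunit, from 31.8 and 35.4 to 13.3 and 14 CPM (log2 -1.297 ± 0.08), in PCLAF, a PCNA-binding protein (log2 -1.23 ± 0.08), and in HELLS (log2 -1.203 ± 0.06). In NCI-H1944 they were in TICRR, needed to fire origins (log2 -0.53 ± 0.10), and in PRIM1 (log2 -0.51 ± 0.08). SAMHD1, which breaks down deoxynucleotides and is known to be induced by interferon, rose in both lines, from 12.5 and 11.9 to 106 and 106 CPM in NCI-H1944 (8.69-fold, log2 3.12 ± 0.05, adjusted p = 8.71e-17) and from 16.4 and 15.7 to 61.1 and 66.6 CPM in NCI-H647 (3.97-fold, log2 1.99 ± 0.06). It moved against RRM1, RRM2, TYMS and TK1 in both lines. RRM2B, another small subunit of ribonucleotide reductase, was called in neither line (log2 0.06 ± 0.03 in NCI-H1944 and -0.13 ± 0.06 in NCI-H647). RPA2, a subunit of the single-strand binding complex, and POLD4, a small subunit of polymerase delta, rose in NCI-H647 by 0.41 ± 0.05 and 0.26 ± 0.09.

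Beside these genes, CDKN1A rose in NCI-H647 from 11.04 and 12.7 to 55.9 and 60.3 CPM (log2 2.30 ± 0.07) and in NCI-H1944 from 741 and 737 to 786 and 806 CPM (log2 0.11 ± 0.02), with a difference between the lines of 2.17 ± 0.08. CCND1, cyclin D1, rose in both (log2 0.47 ± 0.05 and 0.36 ± 0.03). E2F1, a transcription factor of the E2F family, had log2 changes of -0.06 ± 0.11 and -0.03 ± 0.07, neither called. CCNA2, the cyclin of S and G2 phases, fell from 232 and 222 to 103 and 103 CPM in NCI-H647 (log2 -1.14 ± 0.04) and from 50.9 and 46.7 to 26.7 and 29.6 CPM in NCI-H1944 (log2 -0.79 ± 0.07). The part of CDKN1A in the fall of the replication genes was not tested.

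Among lists measured in the same fits, 40 of 40 mitosis genes fell in NCI-H647 and 39 of 40 in NCI-H1944, with medians of -0.70 and -0.71 and a median difference between the lines of -0.05. For 29 genes of homologous recombination and the Fanconi pathway the medians were -0.54 and -0.21, with 25 and 12 lower and, in NCI-H1944, 1 higher. Replication-dependent histone genes, made in S phase, had 57 of 61 tested members lower in NCI-H647 (median -1.74) and 14 of 36 higher in NCI-H1944 (median 0.40). Their mRNAs lack poly(A) tails, so poly(A) selection bears on the second value, and their copies share reads. These lists were not tested against each other.

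**Figure D4:**
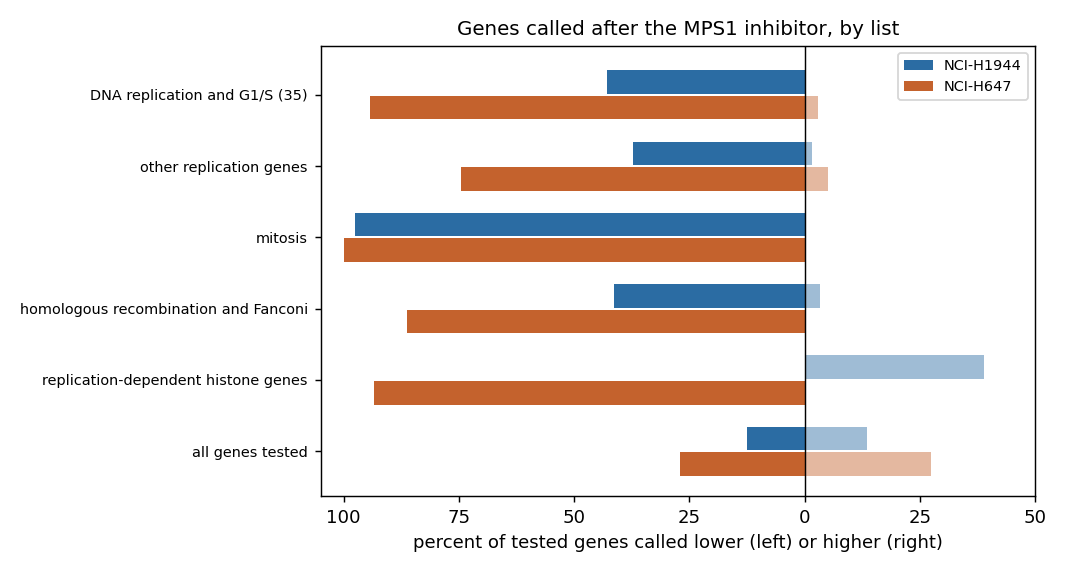
Percent of tested genes called lower (bars to the left of 0) or higher (paler bars to the right) after the inhibitor, by gene list, in NCI-H1944 (blue) and NCI-H647 (orange). Of the 35 DNA replication and G1/S genes, 15 were lower in NCI-H1944 and 33 in NCI-H647, while for mitosis genes the bars of the lines are nearly equal at 39 and 40 of 40 genes.

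Calls in NCI-H1944 rest on small changes. Of its 15 calls, 5 (CDT1, RRM1, RRM2, TYMS and TK1) held under all 12 alternatives, and the count of genes lower was 9 when the first DMSO library or either treated library was dropped, 12 when the second DMSO library was dropped, and 5 with no low-count filter. The calls of GINS1 and CDCA7 were lost whichever library was dropped. Those of CDC6, GINS4 and RFC3 were lost without the first DMSO or the second treated library, that of MCM10 without the second DMSO or the second treated library, and that of POLA1 without the first DMSO or the first treated library. Those of RFC4 and DSCC1 were lost without the first treated library. With DESeq2 the count of genes lower was 11. The calls of CDC6 (adjusted p = 0.0524), GINS1 (0.0632), GINS4 (0.0688) and CDCA7 (0.0741) were lost with it. In NCI-H647, 32 of 34 calls held under all 12. The spans of 13 of the 35 genes overlap another counted gene in the coordinates deposited for NCI-H647, and in 4 the neighbour held more counts: EIF4A2 beside RFC4, INTS8 beside CCNE2, GSE1 beside GINS2 and FADS2 beside FEN1. Their log2 changes in NCI-H647 were 0.04, -0.26, -0.26 and -0.63. EIF4A2, INTS8 and GSE1 lie on the other strand from their genes, while FADS2 lies on the same strand as FEN1. A further entry on the strand of POLA2 held 61.2% as many counts as that gene. The strand setting of the counting is not given in the sources used here. The share of such reads in these genes was not tested.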

How the data were processed

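The authors deposited raw counts, 1 table for each line, with no normalization. Per the labels' protocols, RNA was column-purified with DNase treatment, and both kits were stranded. The submitters' processing notes list STAR and HISAT2, Trimmomatic, Trim Galore and cutadapt, StringTie and featureCounts, with GRCh38 as build. Tool versions were not given in the sources used here, and neither was the strand setting. Each column was matched to a sample by its title, and each gene to a table entry by symbol.

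Counts were analysed in R 4.3.3 with edgeR 4.0.16: genes were kept by filterByExpr (minimum count 10, minimum total 15), normalised with TMM and compared within each line by the quasi-likelihood F test, two-sided, with Benjamini-Hochberg adjustment over all genes tested. For the difference between the lines, an interaction term was fitted jointly over genes that passed in both. Genes were described whatever their outcome, with the 3 largest called changes on each side among the further pathway genes, of which 1 in NCI-H1944 is not reported here. The genes and lists were chosen with earlier results of these data known. The tests were tested on simulated data. Alternatives were other scalings, DESeq2 1.42.0, no filter, summed repeated symbols, a fit of all 8 libraries, the replicate number as a block and leaving out each library. With an arm of 1 library, that library is assumed to vary like the others. No library pair looked like a duplicate: chi-square divided by its degrees of freedom was 1.98 to 3.94 in replicates.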

Additional observations from a re-analysis of the deposited data

Results flagged for a closer look

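The response to the inhibitor differed between NCI-H647 and NCI-H1944 for 30 genes, by the interaction term of edgeR's quasi-likelihood test (adjusted p under 0.05). Of these, 29 were lower and 1 was higher in NCI-H647. Over all 12887 genes tested, 22.7% were lower and 17.4% higher. Differences are the log2 response in NCI-H647 minus that in NCI-H1944, as estimated in the joint fit. They depart slightly from a subtraction of the changes fitted in each line alone. Among licensing genes they were -0.37 for ORC1, -0.21 for CDC6, -0.83 for MCM2, -0.47 for MCM3, -0.72 for MCM4, -0.74 for MCM5, -0.86 for MCM6 and -0.34 for MCM7. In helicase activation they were -0.55 for MCM10, -0.40 for CDC45, -0.78 for CDC7, -0.57 for GINS1, -1.28 for GINS2 and -0.54 for GINS4. In DNA synthesis they were -0.59 for POLA1, -0.58 for POLA2, -0.71 for POLE, -0.69 for POLE2, -0.39 for PCNA, -0.58 for RFC3 and -0.53 for DSCC1. In nucleotide supply they were -0.53 for RRM1, -0.34 for RRM2, -0.58 for TYMS and -0.48 for TK1. Among regulators they were 0.35 for CCNE1, -0.64 for CCNE2, -0.57 for DTL, -0.89 for UHRF1 and -0.72 for CDCA7. The calls of POLA2 (without the first DMSO or first treated library of NCI-H647), POLE2 (without the first treated library of NCI-H1944, or the first DMSO or second treated library of NCI-H647, and with DESeq2) and DSCC1 (with DESeq2) were lost, with adjusted p up to 0.0599, 0.119 and 0.0646. The calls of ORC1, CDC6 and CCNE1 were lost as well, under the alternatives given for each gene above. The kit differed with the line and cannot be told apart from it.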

How the results depend on the processing

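Of 30 called differences between the lines, 24 held under all 15 alternatives. The largest spread was in NCI-H1944: 5 genes were lower with no low-count filter, 9 to 12 when 1 library was left out, and 1 was higher in a fit of all 8 libraries. Of the further pathway genes there, 14 were lower with no filter, 2 were higher with the replicate block and in the fit of all 8 libraries, and 1 to 2 were higher when 1 library was left out. The count of genes with a higher response in NCI-H647 was 0 with DESeq2 and 0 to 1 when 1 library was left out. With library totals alone, the estimates of MCM2 and UHRF1 in NCI-H1944 changed sign, to -0.0039 and -0.000079, and so did the difference for RFC4, to 0.013. Leaving out 1 library also changed signs in NCI-H1944, with ranges from -0.014 to 0.025 for MCM2, -0.023 to 0.046 for UHRF1, -0.18 to 0.0093 for ORC1, -0.067 to 0.031 for DTL and -0.14 to 0.096 for SLBP, none of them called in the main comparison. The cause was not tested. The replicate block gave 15 genes lower in NCI-H1944 and 34 in NCI-H647, and same-numbered libraries deviated together with a correlation of 0.044 and 0.0026, so the numbers were not read as pairs. Over all genes, DESeq2 called 2122 higher and 2573 lower in NCI-H647 (edgeR 4114 and 4070) and 1943 with a lower response there (edgeR 2926), and with no filter 1319 were higher and 1006 lower in NCI-H1944 (2271 and 2075 with it). GINS3, with 65 to 133 counts per library in NCI-H647, had the largest standard error there (0.16).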
